A study of Arabidopsis thaliana with 6 samples.

Results

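The loci described here are 62 Arabidopsis thaliana loci whose microarray signal was higher in flower buds after the floral regulator SUPERMAN (SUP) was activated, out of 32627 loci measured. They were chosen by their values in the comparison itself. The mean log2 intensity over all 6 arrays had to reach 6, the mean of the dexamethasone (DEX) arrays had to exceed that of the Mock arrays by at least 0.7, and the lowest DEX array had to lie above the highest Mock array. In all, 75 loci met these conditions. Left out were 7 mitochondrial loci, 2 chloroplast loci and 4 named genes, namely CSLB03, AXR3, CUC3 and ROT3. The differences, the separation of the groups and the levels below were therefore fixed by the choice of the loci, and they are given as a description with no test.

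SUP is a zinc-finger protein that acts as a transcriptional repressor and is known for marking the boundary between stamens and carpels in the flower. A protein fused to the glucocorticoid receptor's hormone-binding part is generally held outside the nucleus until a steroid such as DEX is given. Floral boundary genes are known for keeping growth low between neighbouring organs.

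The 3 DEX samples and the 3 Mock samples were inflorescence buds of Landsberg erecta plants carrying 35S::SUP-GR, so that the controls carried the transgene too. The 35S promoter drives expression in most tissues rather than in the SUP domain, and how many transgenic lines were used is not given in the sources used here. DEX plants were dipped for 1 min in 10 µM DEX made from a 30 mM stock in ethanol (a dose written in the labels with the symbol for micrometres and taken here as micromolar), and Mock plants in the same amount of ethanol, both with 0.015% Silwet L-77. Plants grew at 22 °C in continuous light, and buds earlier than flower stage 10 were taken 4 hours after treatment, labelled with Cy3 and hybridised to NimbleGen arrays. DEX-treated plants without the transgene were not analysed here, so SUP-GR activity and DEX itself cannot be told apart.

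Values are log2 of the deposited intensity. A feature is a set of probes with 1 value per array, and where a locus had several features the brightest stood for it. Median intensities were 74.2 to 75.2 on the DEX arrays and 74.7 to 77.3 on the Mock arrays. Young floral bud markers were present, with 13 of 15 at a mean log2 of at least 6. The exceptions were CAL at 4.76 and CLV3 at 1.73. Summed intensity of the bud markers was 7651 to 7926 on the DEX arrays and 8413 to 9019 on the Mock arrays. A sum is carried mostly by its brightest genes. Taken singly, 4 of the 15 were higher with DEX. Their log2 differences (DEX minus Mock) ran from -1.29 for WUS and -0.82 for LFY to 0.17 for ANT, with a median of -0.16. For the tapetum and anther list, 14 of 15 markers reached that level, with sums of 11662 to 12022 for DEX and 11384 to 12003 for Mock. The photosynthetic tissue list had 10 of 13 at that level (16496 to 16936 for DEX, 16543 to 17579 for Mock), late pollen 6 of 15 (1861 to 2230 for DEX, 2296 to 2574 for Mock) and root 4 of 12 (1081 to 1396 for DEX, 1140 to 1372 for Mock). No seed marker of 14 reached it, with sums of 84.7 to 88.7 for DEX and 85.9 to 112 for Mock. The part of these shifts in the results below was not tested. In whole buds, fewer cells of a type and less RNA per cell cannot be told apart. SUP itself, whose feature may also read the transgene's RNA (not tested), measured 8.82, 8.97 and 8.86 on the DEX arrays, against 8.70, 8.86 and 8.82 on the Mock arrays, and the groups overlapped.

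The 62 loci were modestly higher with DEX. Their differences ran from 0.70 to 1.38 on the log2 scale with a median of 0.83, which is 1.63-fold to 2.60-fold. Over all loci the median difference was 0.01. The gap, meaning the lowest DEX value minus the highest Mock value, ran from 0.01 to 0.85 with a median of 0.33. A mean log2 of 6 corresponds to an intensity of 64 and was passed by 51.4% of all loci, and 11 of the 62 lay below the median of all loci, so the word bright would overstate their signal. Their median level was 6.70, against 8.52 for all nuclear loci that passed the same level. Of loci at that level, 0.447% met the rule before the named exclusions, and 10.9% had no overlap with DEX above Mock whatever the size of the difference (8.74% over all loci). The mirrored rule for lower loci was met by 1.34%.

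**Figure D1:**
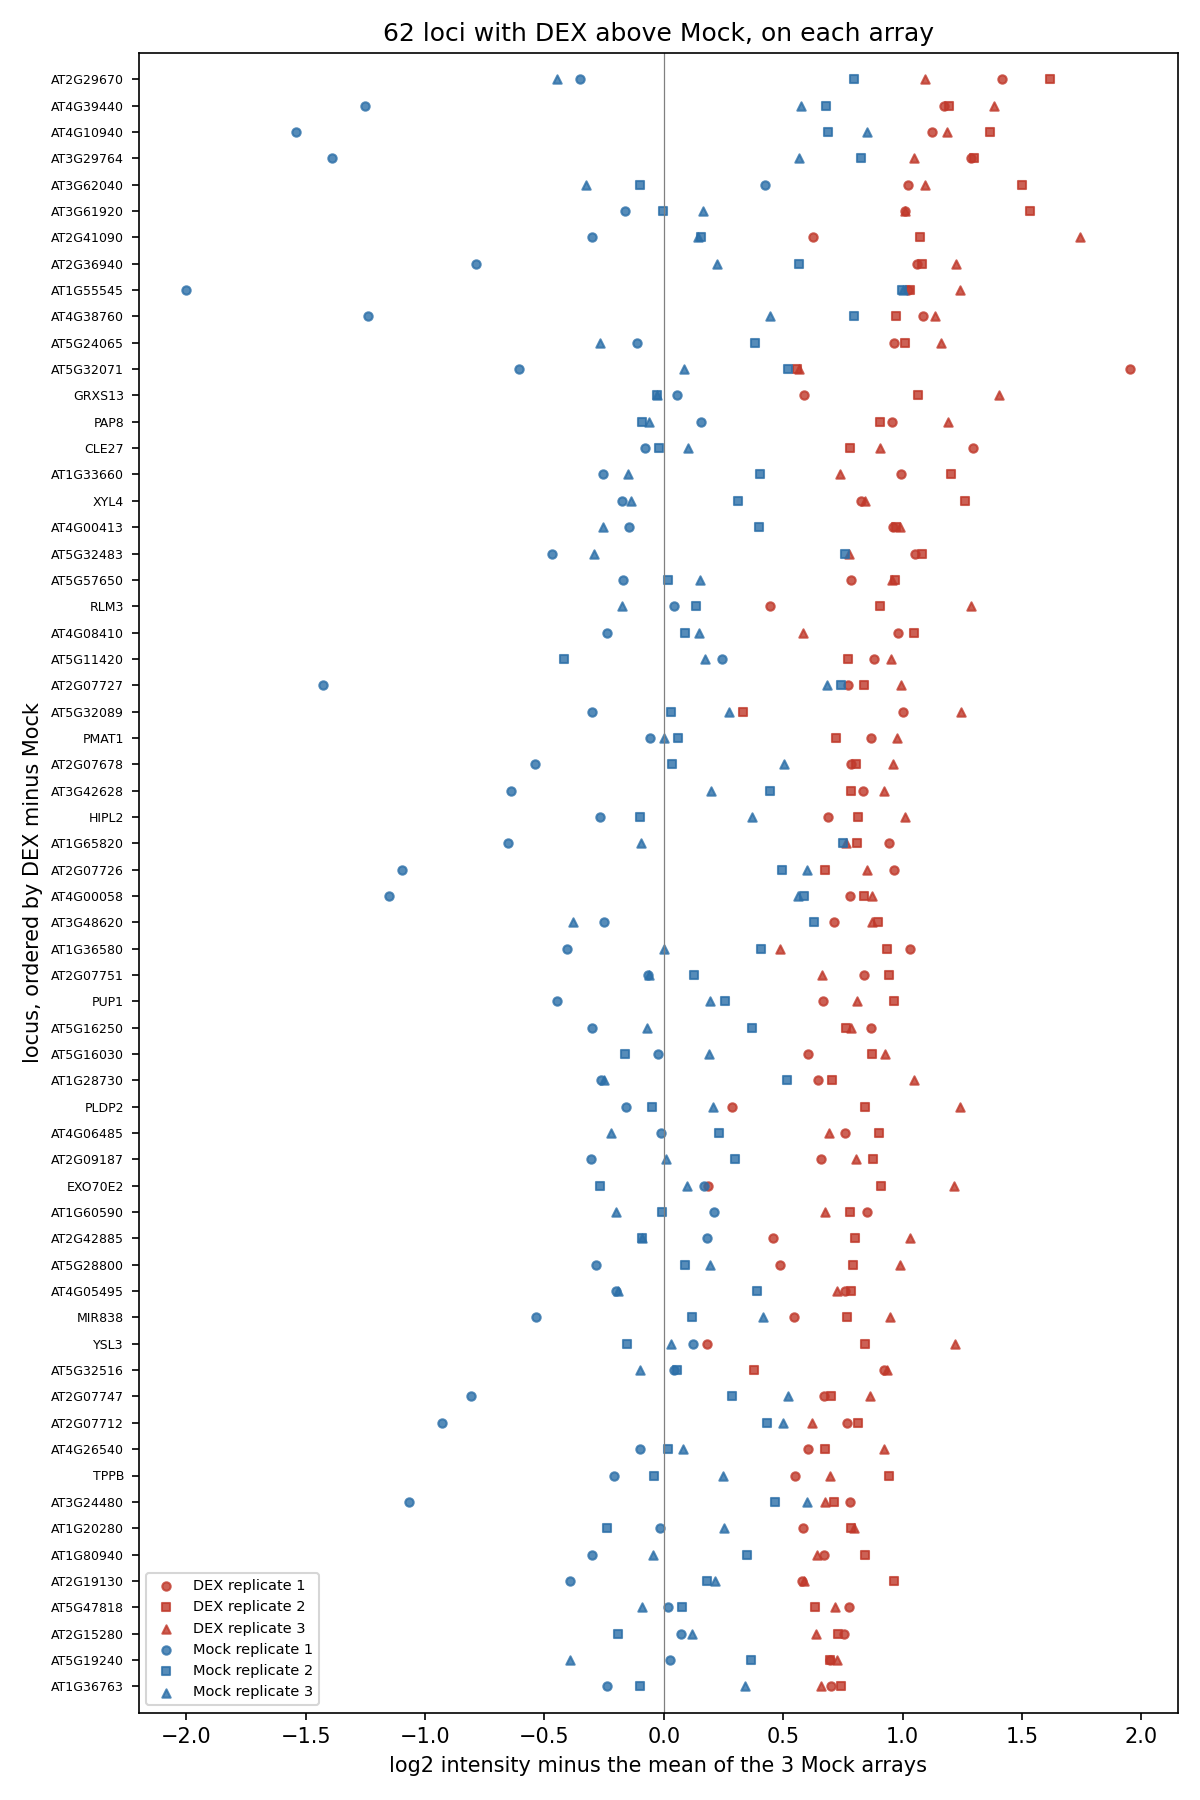
Log2 intensity of each of the 62 loci on the 3 DEX arrays (red) and the 3 Mock arrays (blue), relative to the mean of the locus's Mock arrays, with loci down the page in order of the difference and a symbol for each replicate number. Every red point of a locus lies right of its blue points by the rule, and Mock replicate 1 (blue circles) is the lowest Mock array for 42 of the 62 loci. That holds for 6100 of 16575 nuclear loci with a mean log2 of at least 6.

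The thresholds fell within a continuous range of values. Just inside the difference threshold were AT1G36763 and AT5G19240 at 0.70 and 0.71, and just outside were AT4G03850 and AT5G31909, both at 0.70 after rounding. For the level, AT5G32516 and TPPB lay just inside at 6.0 after rounding, and AT1G40135 at 5.98 and RLP38 at 5.96 lay just outside. For the gap, AT1G65820 at 0.01 and EXO70E2 at 0.02 lay inside. GPT2 at -0.03 lay outside although its difference was 1.31, and so did AT5G45850 at -0.04 with a difference of 1.03.

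**Figure D2:**
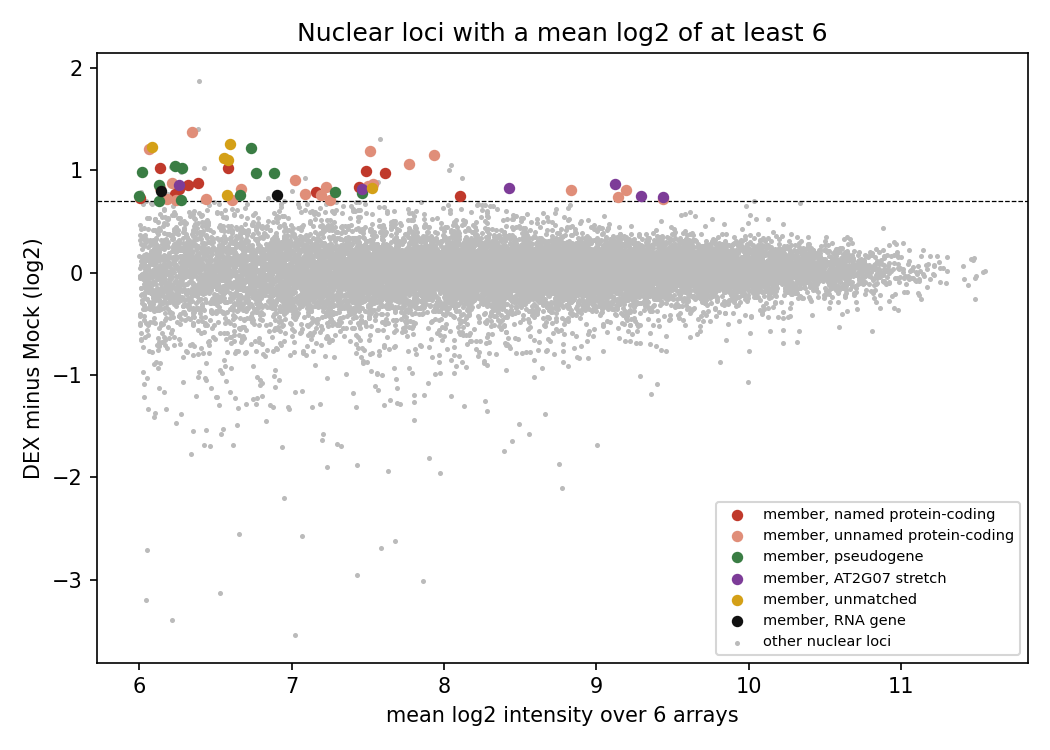
Difference (DEX minus Mock, log2) against mean log2 intensity over 6 arrays for nuclear loci with a mean of at least 6, with the 62 loci coloured by class and the dashed line at 0.7. The 62 loci lie between 0.70 and 1.38 on the vertical axis, with a median level of 6.70 against 8.52 for all loci plotted.

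When limma (default prior, Benjamini-Hochberg adjustment over all 32627 loci, two-sided) was run on the whole table, 1 locus was called higher in DEX, which is 0.00306% of those tested, and 16 were called lower (0.049%). The locus called higher was CSLB03, one of the named exclusions, so none of the 62 loci was called. Those called lower included 1 of the 15 bud markers and 1 of the 15 tapetum and anther markers. At an unadjusted p under 0.05, 1468 loci were higher. With replicate number as a block 0 loci were called. A trended and robust prior called 84 loci higher (0.257%), 21 of them among the 62, and restricting the fit to loci at a mean log2 of at least 6 called 60 (0.358%), with 21 among the 62. With 16 added to each intensity 33 were called (0.101%), 7 of them among the 62. Because the rule used this contrast, no support is read from these counts.

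Protein-coding loci without a symbol in the RefSeq table held several of the largest differences. AT2G29670 measured 7.07, 7.28 and 6.75 on the DEX arrays, against 5.31, 6.45 and 5.21 on the Mock arrays, a difference of 1.38. AT3G61920 measured 7.93, 8.45 and 7.93 with DEX, against 6.76, 6.92 and 7.09 with Mock, with the widest gap of the 62 loci at 0.85. AT2G41090 measured 7.98, 8.43 and 9.11 with DEX, against 7.06, 7.52 and 7.51 with Mock. AT2G41090 differed more among the DEX arrays than among the Mock arrays. AT3G62040 measured 6.48, 6.96 and 6.56 with DEX and 5.89, 5.36 and 5.14 with Mock, and its difference of 1.21 was 1.42 without Mock replicate 1. AT5G57650 measured 7.36, 7.54 and 7.53 with DEX and 6.40, 6.59 and 6.72 with Mock, a difference of 0.90 with a gap of 0.63. Over the 23 protein-coding loci without a symbol that lie outside the AT2G07 stretch described below, the difference ran from 0.71 to 1.38 with a median of 0.82. Those not named elsewhere were AT5G11420 (0.87), AT3G42628 (0.85), AT3G48620 (0.83), AT1G36580 (0.82), AT1G60590 (0.77), AT2G42885 (0.76), AT1G20280 (0.72) and AT2G19130 (0.71). AT4G08410, AT5G16030, AT1G80940 and AT2G15280, named again below, differed by 0.87, 0.80, 0.72 and 0.71 in that order.

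Of the named enzymes, glutaredoxin GRXS13, a small redox protein, averaged an intensity of 140 with DEX and 67.2 with Mock. Its log2 values were 6.66, 7.14 and 7.47 with DEX, against 6.12, 6.04 and 6.04 with Mock, a difference of 1.02. PAP8, a purple acid phosphatase, measured 6.58, 6.53 and 6.81 with DEX and 5.78, 5.53 and 5.56 with Mock. The lowest DEX array of PAP8 stood 0.75 above its highest Mock array. XYL4, a beta-D-xylosidase acting on cell-wall polysaccharide, measured 7.95, 8.38 and 7.96 with DEX and 6.95, 7.43 and 6.99 with Mock, a difference of 0.98. PMAT1, which adds malonyl groups to phenolic glucosides, measured 6.76, 6.61 and 6.87 with DEX and 5.83, 5.95 and 5.89 with Mock, with little spread on either side. TPPB, a trehalose-6-phosphate phosphatase, was 0.73 higher, at 6.19, 6.58 and 6.33 with DEX against 5.43, 5.59 and 5.88 with Mock. HIPL2 measured 7.71, 7.84 and 8.03 with DEX and 6.75, 6.92 and 7.39 with Mock, a difference of 0.84.

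The signal peptide gene CLE27, of the CLE family of small secreted peptides, measured 8.29, 7.77 and 7.90 with DEX and 6.91, 6.97 and 7.09 with Mock, a difference of 0.99. RLM3, named for resistance to the fungus Leptosphaeria maculans, measured 6.39, 6.85 and 7.23 with DEX and 5.99, 6.08 and 5.77 with Mock. The DEX arrays of RLM3 spread more widely than its Mock arrays.

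The remaining named loci were YSL3, PUP1, PLDP2 and EXO70E2. YSL3, a transporter of metals bound to nicotianamine, measured 7.91, 8.57 and 8.95 with DEX, against 7.85, 7.58 and 7.76 with Mock, so that its lowest DEX array lay just above the Mock range. PUP1, a purine permease, was 6.52, 6.82 and 6.67 with DEX and 5.41, 6.11 and 6.05 with Mock. PLDP2, a phospholipase D of the zeta type, measured 7.05, 7.61 and 8.0 with DEX and 6.61, 6.71 and 6.97 with Mock. EXO70E2, a subunit of the exocyst that tethers secretory vesicles, measured 6.04, 6.76 and 7.07 with DEX and 6.02, 5.58 and 5.95 with Mock, with the lowest DEX value 0.02 above the highest Mock value. In these 4 loci and in GRXS13 and RLM3, DEX replicate 1 was the lowest DEX array. It was the lowest DEX array for 34 of all 62 loci (54.8%) and for 9 of the 12 named protein-coding loci, against 35.0% of nuclear loci at the same level. DEX replicate 3 was the highest for 31 of the 62 and for 8 of the 12, against 36.3%. The source of this spread was not tested.

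Other genes were taken from 15 pathway lists (stress, nutrient, hormone, cell wall and growth pathways) and from the relatives of the named loci, meaning genes with the same letters in their symbol, which gave 388 loci. Of these, limma called 0 in either direction, while an unadjusted p under 0.05 was reached by 16 with a positive and 42 with a negative difference. The trended and robust prior called 17 of them, 2 higher and 15 lower, where it called 84 of all loci higher and 347 lower (1.06%). Their median difference was -0.02, against 0.01 over all loci. No pathway list held any of the 62 loci. The brassinosteroid synthesis list held ROT3, which met the rule with a difference of 0.92 but is a named exclusion, so it counts among the 388. Medians of the pathway lists ran from -0.17 for sugar starvation to 0.18 for phosphate starvation. In the phosphate starvation list 0 of 14 were called, and SPX1, a sensor of phosphate status, was 0.57 higher (SE 0.17, limma adjusted p = 0.356). Among the YSL relatives of YSL3, 0 of 7 were called and YSL1 measured -0.59 (SE 0.12, limma adjusted p = 0.226). PAP29, a relative of PAP8 in name, had the lowest difference of that group at -1.89 (SE 0.15, limma adjusted p = 0.0513) and did not pass. XYL1, a relative of XYL4 in name at 0.22 (SE 0.11, limma adjusted p = 0.569), did not pass either.

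Annotation classes were uneven. Of the 62 loci, 38 (61.3%) were protein-coding, 16 (25.8%) were pseudogenes, 6 (9.68%) had no match in the RefSeq table and 2 were RNA genes, namely MIR838 and a transfer RNA, AT1G28730, which differed by 0.80. Of all nuclear loci at the same level, 95.8% were protein-coding, 2.74% pseudogenes and 0.410% unmatched. The rule was met by 3.52% of pseudogenes at that level, against 0.265% of protein-coding loci. Of the 225 loci lower by the mirrored rule, 98.2% were protein-coding and 0.444% pseudogenes. Symbols were given to 12 of the 38 protein-coding loci (31.6%), against 45.4% of protein-coding loci at that level. The pseudogenes AT5G24065 (6.67, 6.72 and 6.87 with DEX, against 5.60, 6.09 and 5.44 with Mock) and AT4G00413 (7.36, 7.37 and 7.39 with DEX, against 6.25, 6.80 and 6.15 with Mock) spread less on the DEX arrays than on the Mock arrays. The pseudogenes AT5G32071, AT5G32089 and AT5G32516 spread more on the DEX arrays. AT1G33660 measured 6.52, 6.73 and 6.27 with DEX and 5.27, 5.93 and 5.38 with Mock, and AT5G32483 7.33, 7.36 and 7.05 with DEX and 5.81, 7.04 and 5.99 with Mock. AT5G32483 had a gap of 0.02. The 13 pseudogenes outside the AT2G07 stretch differed by 0.70 to 1.21. They also included AT4G06485 (0.78), AT2G09187 (0.78), AT4G05495 (0.75), AT5G47818 (0.71) and AT5G32089 (0.86). Over all 62 loci the median SD was 0.14 on the DEX arrays and 0.34 on the Mock arrays, against 0.12 and 0.13 over nuclear loci at the same level. The 12 named protein-coding loci went the other way, at 0.26 on the DEX arrays and 0.17 on the Mock arrays.

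Mock replicate 1 stood apart for many of the 62 loci. It was the lowest Mock array for 42 of them, against 7 for replicate 2 and 13 for replicate 3. Among nuclear loci at the same level it was the lowest for 6100 of 16575. Its value minus the mean of the other Mock arrays had a median of -0.38 over the 62, -0.01 over nuclear loci at the same level, -0.50 over mitochondrial loci and -0.54 over chloroplast loci. It lay over 1 log2 unit below for 12 of the 62 (19.4%), for 0.477% of the nuclear loci, for 28.0% of the mitochondrial loci and for 28.7% of the chloroplast loci. Without that array the difference ran from 0.10 to 1.42, with a median of 0.71, and 35 of the 62 remained at 0.7 or above.

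**Figure D3:**
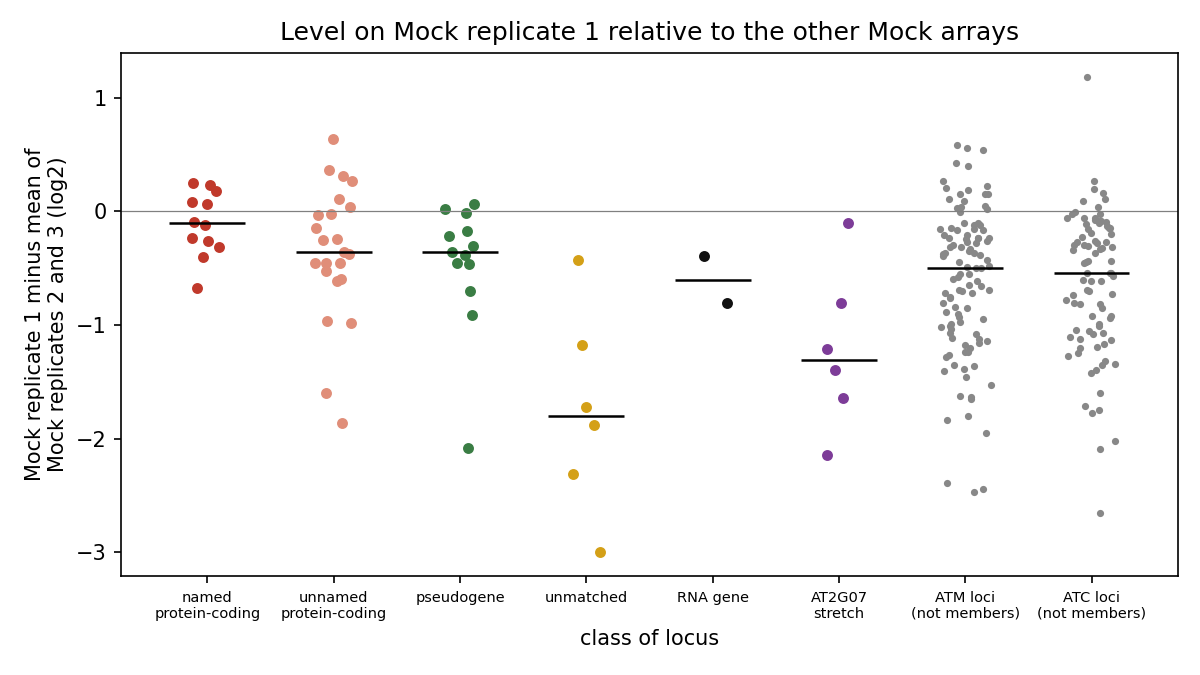
Mock replicate 1 minus the mean of Mock replicates 2 and 3 (log2) for each of the 62 loci by class and, in grey, for mitochondrial (ATM) and chloroplast (ATC) loci, with bars at the medians. The medians are -0.10 for named protein-coding loci, -0.36 for unnamed protein-coding loci, -0.36 for pseudogenes and -0.60 for RNA genes. They are -1.80 for unmatched loci, -1.30 for the AT2G07 stretch, -0.50 for mitochondrial loci and -0.54 for chloroplast loci.

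This low array weighed on classes unequally. The 12 named protein-coding loci had a median of -0.10 for that shift, and 10 of them remained at 0.7 or above without the array. Outside the AT2G07 stretch, the 23 protein-coding loci without a symbol and the 13 pseudogenes each had a median of -0.36. Of these, 14 and 9 remained. The 2 RNA genes had a median of -0.60, and 0 remained. The 6 unmatched loci had a median shift of -1.80, and 1 remained. AT4G39440 measured 7.14, 7.16 and 7.35 with DEX and 4.71, 6.64 and 6.54 with Mock, and its difference of 1.25 became 0.62. AT1G55545 measured 7.06, 7.06 and 7.27 with DEX and 4.03, 7.03 and 7.03 with Mock, and its difference of 1.1 became 0.10. AT4G10940 measured 6.60, 6.84 and 6.66 with DEX and 3.93, 6.16 and 6.33 with Mock, and its difference of 1.23 became 0.46. In each of these 3 Mock replicate 1 stood far below every other array. Of the other loci with large differences, AT4G38760 measured 8.32, 8.21 and 8.38 with DEX and 6.0, 8.04 and 7.69 with Mock, and AT3G29764, a transcribed pseudogene, 7.41, 7.43 and 7.18 with DEX and 4.74, 6.95 and 6.69 with Mock. Their differences of 1.06 and 1.21 became 0.44 and 0.52 without that array. The remaining unmatched loci were AT4G00058 (0.83, and 0.25 without that array), AT5G28800 (0.76, and 0.62 without it) and AT2G36940.

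The 6 loci with the highest mean signal, which is not a measure of RNA abundance between loci, were AT3G24480, AT5G16250, AT4G26540 and, in the AT2G07 stretch, AT2G07712, AT2G07747 and AT2G07727. AT3G24480 measured 9.86, 9.79 and 9.75 with DEX and 8.01, 9.54 and 9.68 with Mock, and its difference of 0.72 became 0.19 without Mock replicate 1. AT4G26540 measured 9.38, 9.45 and 9.70 with DEX and 8.68, 8.80 and 8.86 with Mock, and its difference of 0.73 was 0.68 without that array. AT5G16250 measured 9.66, 9.55 and 9.57 with DEX and 8.49, 9.16 and 8.72 with Mock, and its difference of 0.81 was 0.66 without it.

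A run of 6 loci on chromosome 2, AT2G07678, AT2G07712, AT2G07726, AT2G07727, AT2G07747 and AT2G07751, lay in the stretch where that chromosome is known to carry an insertion of mitochondrial DNA. Mock replicate 1 was the lowest Mock array in all 6, with a median shift of -1.30. The differences of AT2G07678 and AT2G07726 were 0.85 and 0.83, and 0.58 and 0.28 without that array. AT2G07712 measured 9.84, 9.89 and 9.69 with DEX and 8.14, 9.50 and 9.57 with Mock, and AT2G07747 9.60, 9.62 and 9.79 with DEX and 8.12, 9.21 and 9.45 with Mock. AT2G07727 measured 9.46, 9.53 and 9.68 with DEX and 7.26, 9.43 and 9.38 with Mock, and its difference of 0.87 became 0.15. AT2G07751 alone of these kept 0.7, at 7.89, 8.0 and 7.72 with DEX and 6.99, 7.18 and 6.99 with Mock. The other 94 loci at the minimum level were taken by number, from AT2G07600 to AT2G07799, and include MCM5 and ABCC13. They had a median difference of 0.26 and of 0.11 without Mock replicate 1. Whether features there read mitochondrial RNA was not tested, and a feature's target is not given in the files.

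**Figure D4:**
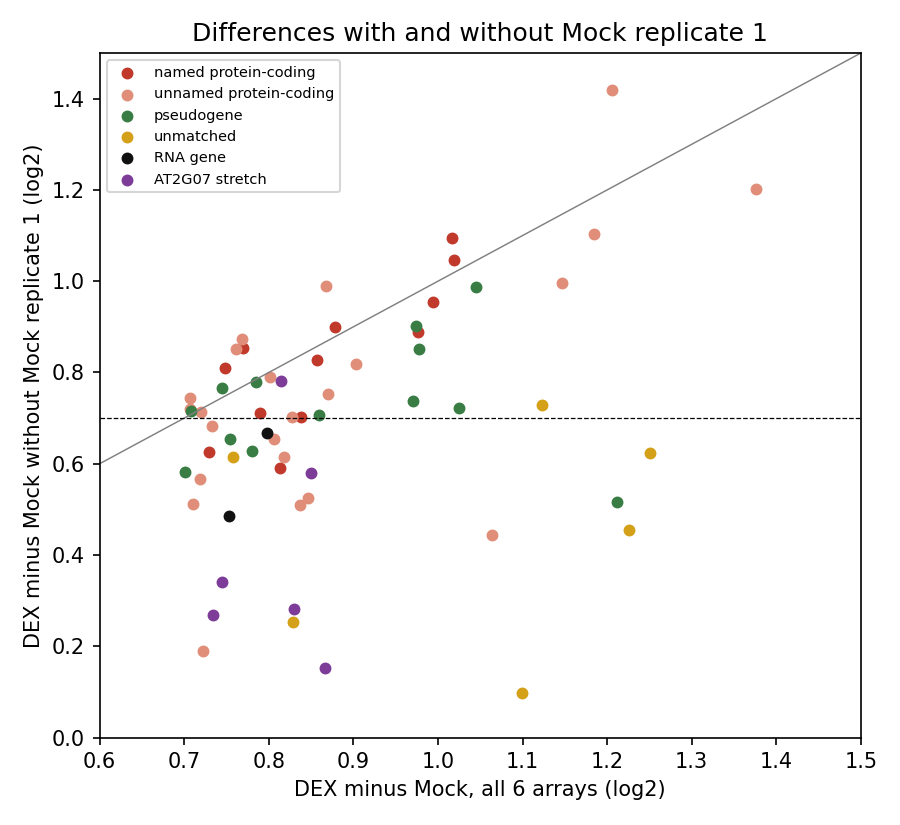
Difference (DEX minus Mock, log2) without Mock replicate 1 against the difference over all arrays, for the 62 loci by class, with the diagonal of equal values and a dashed line at 0.7. Of the 62 points 35 lie at or above the dashed line, and AT1G55545 at 0.10 and AT3G24480 at 0.19 lie far below it.

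Of the 62, 16 met the rule under every left-out array and under both other normalizations, 12 of them protein-coding, 3 pseudogenes and 1 unmatched. They were AT2G29670, AT3G61920, AT2G41090, GRXS13, CLE27, XYL4, AT5G57650, AT4G08410, PMAT1, HIPL2, AT2G07751, AT5G16030, AT5G24065, AT4G00413, AT5G32483 and AT2G36940. AT2G36940, the unmatched one, measured 7.06, 7.08 and 7.22 with DEX and 5.21, 6.56 and 6.22 with Mock. Leaving out an array cannot make groups overlap that were already apart. Under that setting only the difference and level thresholds could fail. PAP8 (mean log2 of 6.13) and AT3G62040 (6.07) were lost by the level threshold. With an array left out, their differences ran from 0.93 to 1.09 and from 1.04 to 1.42. The normalizations had little room to remove loci. Median centring kept 62 and quantile normalization 60 of the 62, and neither removed any of the 16. These settings reuse the values that the rule used, so no support is read from them.

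Several features existed for 7 of the 62 loci, and the features not used by the rule came from the same arrays. Of the 11 features not used, 6 had no overlap with DEX above Mock and 5 overlapped. Feature 3 of RLM3, at a mean log2 of 6.04, differed by 0.94. Its feature 4, at 4.86 and so below the level the rule required, differed by 0.97. Both others of AT5G16030 differed by 1.27 and 0.96, and none of these features overlapped. A dim feature of RLM3, with mean intensities of 10.9 with DEX and 3.69 with Mock, differed by 1.47 without overlap, a size that is uncertain at so low a signal. The second feature of PAP8, also dim at 22.3 with DEX and 13.8 with Mock, differed by 0.67 without overlap. The other feature of GRXS13 differed by 0.98 but overlapped. For AT1G65820 the others were 0.12 and -0.26, for AT2G15280 0.35 and for AT1G80940 -0.14, all overlapping. On the features that the rule used, these loci differed by 0.84, 0.71 and 0.72 in that order.

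**Figure D5:**
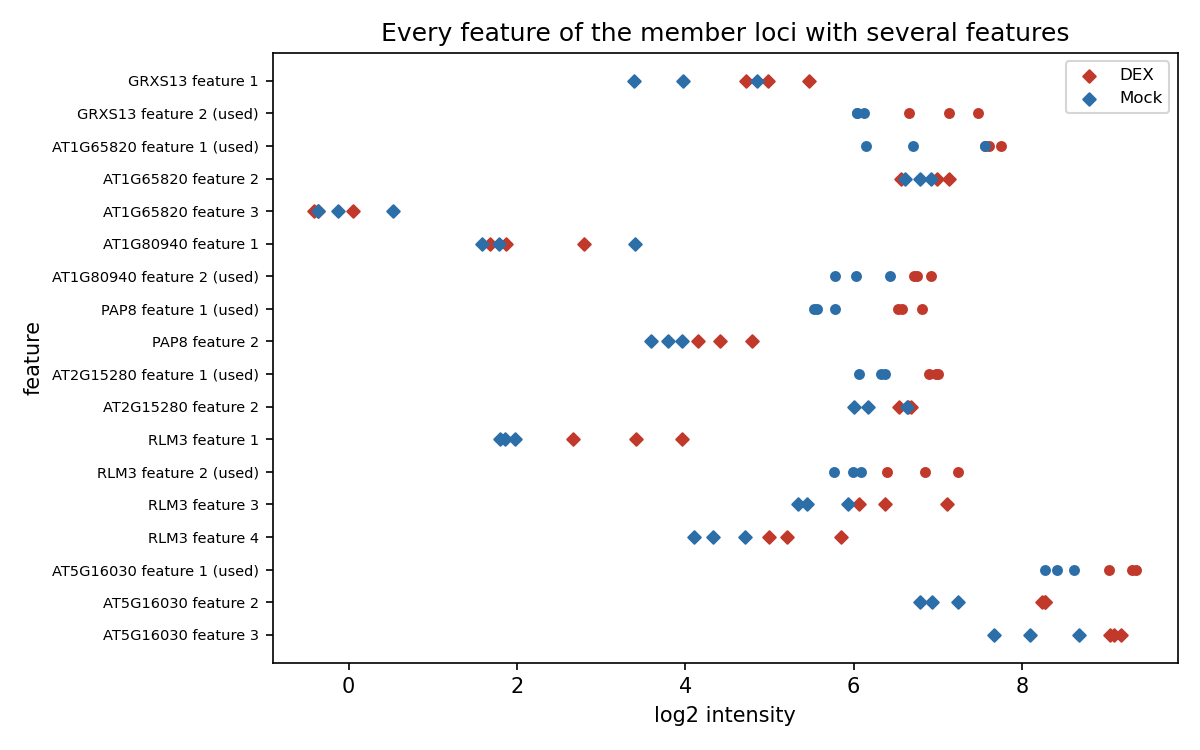
Log2 intensity on the 3 DEX arrays (red) and the 3 Mock arrays (blue) for every feature of the 7 loci with several features, circles marking the feature the rule used and diamonds the others. All features of RLM3, AT5G16030 and PAP8 have their DEX points right of their Mock points, and the other features of AT1G65820, AT1G80940, AT2G15280 and GRXS13 overlap.

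Overlapping genes in the RefSeq table were found for 10 of the loci, and since the strand of a feature is not given, signal from partners cannot be told apart. MIR838 lies within DCL1, which makes microRNAs, and it measured 7.07, 7.29 and 7.48 with DEX and 5.99, 6.65 and 6.94 with Mock, while DCL1 differed by -0.07. Every DEX array lay above every Mock array for 10.9% of loci with a mean log2 of at least 6, and for 4 of the 10 partners. These were AT5G64572, a long non-coding RNA overlapping XYL4, with a difference of 0.65, ECT3 beside EXO70E2 and AT2G07669 beside AT2G07678, both with 0.28, and AT5G16040 beside AT5G16030, with 0.11. The other partners overlapped between groups, among them ROC4 beside AT3G62040 at -0.10 and AT3G05640 beside PLDP2 at 0.03.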

How the data were processed

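Gene expression was measured in 3 DEX and 3 Mock samples. The authors deposited RMA intensity values, per the submitters' processing notes. Their range (0.482 to 3642.22) shows a linear scale. The version and the probe design are not stated in the labels. Of 39640 rows, 2522 held no value, leaving 37118 features for 32627 loci, 3602 of them with several features; 31993 matched the RefSeq table (TAIR10.1). Intensities were converted to log2 without a pseudocount. limma 3.58.1 in R 4.3.3 was fitted over all loci with a threshold of 0.05, and was tested on simulated data. The members, lists and tests were chosen with earlier results of these data known. Values by array are given for the 20 largest differences, the 6 brightest, the 6 widest gaps and, added after their values were seen, the other members with a symbol. The 2 loci nearest each threshold on either side are given by the value concerned, and other members by their difference. Replicate numbers correlated between groups at 0.11, 0.29 and 0.24 over loci at the minimum level, but 0.03, 0.06 and 0.06 over all loci. Arrays with different numbers correlated at -0.24 to -0.04 at the minimum level and at -0.06 to 0.004 over all loci. Separate plants per replicate are not stated, so p-values measure the spread between these samples. Alternatives were a replicate block, other priors, filters, normalizations, 16 added to each intensity, and leaving out each array.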

Additional observations from a re-analysis of the deposited data

Results flagged for a closer look

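Features set aside by the rule, which took the brightest per locus, also separated the groups in 3 loci. The second feature of PAP8 differed by 0.67 (DEX minus Mock, log2). RLM3's other features differed by 0.94, 0.97 and 1.47. Those at 0.97 and 1.47 were dimmer, at mean intensities of 42.2 and 10.9 with DEX and 21.1 and 3.69 with Mock. The size of the 1.47 is uncertain at so low a signal. The other features of AT5G16030 differed by 1.27 and 0.96. These 6 of the 11 features set aside had no overlap with DEX above Mock, as had 8.74% of all loci, and the other 5, of GRXS13, AT1G65820, AT1G80940 and AT2G15280, overlapped. They come from the same 6 arrays, and how far probes of a locus share sequence is not given in the sources used here.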

How the results depend on the processing

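The count of 62 became 208 with a minimum difference of 0.5 and 14 with 1, 115 with a minimum level of 5 and 27 with 7, and leaving out an array gave 64 to 114 loci, of which 35 to 56 were among the 62. It was 114 without Mock replicate 2 and 102 without Mock replicate 3. Mean of features (59), quantile normalization (66), median centring (76), 16 added (42) and separation within replicate numbers as a block (72) stayed within 1.5 times. The 1 limma call became 0 with the replicate block, 84 with a trended and robust prior, 60 above the minimum level, 33 with 16 added, and 0 when any array was left out (1170 to 1504 at an unadjusted p under 0.05). The listed loci called, 0, became 17, 11 and 6 under those same 3 settings (prior, minimum level and 16 added), 0 with the replicate block, and 0 leaving out any array (49 to 56 unadjusted). The cause of these changes was not tested. Promoter motifs were not run, because no promoter sequences were used here. The number of arrays limits the precision.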

Other observations

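Of the placed loci, the 63 neighbours at a mean log2 of at least 6 that are not among the 62 had a median difference of 0.08. Of these neighbours 46 were above 0, against 8629 of 16575 nuclear loci at that level. No overlap with DEX above Mock was found for 12, where 10.9% of loci at that level have none. The 12 include the overlapping partners AT5G64572, ECT3, AT5G16040 and AT2G07669, and AT2G07786 and AT2G07674 of the AT2G07 stretch. AT2G07726 and AT2G07727, and AT5G32071 and AT5G32089, were the 2 adjacent pairs among the 62. AT5G32071 rested on DEX replicate 1, at 7.72, 6.33 and 6.34 with DEX, against 5.16, 6.29 and 5.85 with Mock, and its difference of 1.03 became 0.56 without that array. Leaving out Mock replicate 1 brought in 31 loci not among the 62 and left out 27 of them.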
